A study of Caenorhabditis briggsae with 9 samples.

Results

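Cbr-cpr-1 (CBG23343), Cbr-cpr-4 (CBG18978) and Cbr-cpr-6 (CBG10849) are cathepsin B genes of the nematode Caenorhabditis briggsae. These 3 genes, of 22922 gene identifiers in the count table, were found by matching their symbols to locus tags in a reference gene table. They were picked for their levels in the 3 strains compared here, so their own differences between strains are given as fold changes with SE, as descriptions, and no test of them is reported. RNA of whole L3 larvae was sequenced in 9 libraries, with 3 replicates that the labels call independent from each strain. The wild-type isolate was AF16. One mutant strain carried gu163, an allele of Cbr-spr-4 (also named Cbr-ivp-1), and the other carried gu167, an allele of Cbr-htz-1 (also named Cbr-ivp-2). The study asked how these mutants differ from wild type at the stage when vulval precursor cells respond most to Cbr-lin-3. All strains were grown on NGM plates at 20 degrees, bleached and synchronized in 2 rounds, and harvested just before those precursor cells began to divide. The sources used here do not give the kind of lesion in the alleles.

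Cathepsin B enzymes are cysteine proteases of the papain family. They are made as inactive precursors that become active in acid compartments, and they both cut proteins internally and trim dipeptides from their ends. In C. elegans several cpr genes are expressed in the intestine, where such proteases help digest the bacterial diet. CPR-1 was described there as a gut cysteine protease, and CPR-4 is a secreted protein that was found to act between cells after irradiation. Cystatins are small inhibitors of these enzymes. Whether the C. briggsae genes act in the same tissue was not measured here.

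Mean levels of all 3 cathepsin B genes were highest in gu163, intermediate in AF16 and lowest in gu167. Cbr-cpr-1 differed most between gu163 and AF16, by 3.46-fold, whereas in gu167 the values of the 3 genes lay 1.60-fold to 1.94-fold below AF16. Levels are given as CPM, the count relative to the library's total over tested genes after TMM scaling, which adjusts totals for differences in library composition. They are used to compare strains within a gene and not to compare genes with each other, because gene lengths were not applied. In whole animals fewer cells of a type and less RNA per cell cannot be told apart.

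In replicates 1, 2 and 3 of AF16, Cbr-cpr-1 stood at 145, 330.1 and 275 CPM. The gu163 replicates gave 1240.2, 617 and 735 CPM, and those of gu167 gave 236, 140.5 and 72.8 CPM. The lowest gu163 library was above the highest AF16 library, while gu167 and AF16 overlapped. The strain means were 250.1 ± 95.2 CPM (AF16), 864 ± 331 CPM (gu163) and 149.8 ± 82.0 CPM (gu167; SD, n = 3). Against AF16 this was a log2 fold change of 1.79 ± 0.45 (SE) for gu163 and -0.74 ± 0.44 for gu167. Between the mutants it was -2.53 ± 0.46 in gu167 against gu163, a level 5.77-fold lower in gu167. Within AF16 its SD was 38.1% of the mean, beside 10.8% for Cbr-cpr-4 and 21.1% for Cbr-cpr-6, and replicate 1 was below both other libraries. The gu163 difference ranged from 1.45 without gu163 replicate 1 to 2.04 without AF16 replicate 2. The gu167 difference was -0.41 without gu167 replicate 3 and -1.24 without gu167 replicate 1.

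The AF16 replicates of Cbr-cpr-4 gave 943, 999 and 1159 CPM, those of gu163 gave 1945, 1169 and 1250.1 CPM, and those of gu167 gave 919, 598 and 416 CPM. The strains did not overlap, but neighbouring values were close, with AF16 replicate 3 just under gu163 replicate 2 and gu167 replicate 1 just under AF16 replicate 1. Means were 1034 ± 112, 1455 ± 427 and 644 ± 255 CPM in AF16, gu163 and gu167 (SD, n = 3). Against AF16 the log2 fold change was 0.49 ± 0.31 for gu163 and -0.68 ± 0.31 for gu167, and it was -1.17 ± 0.31 in gu167 against gu163. Without gu167 replicate 3 the gu167 difference was -0.45, and without gu167 replicate 1 it was -1.04. Without gu163 replicate 1 the gu163 difference was 0.24. That gu163 library held the highest value of the gene, and the 2 other gu163 libraries lay close to AF16.

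Replicates 1 to 3 of Cbr-cpr-6 read 448, 351 and 296 CPM for AF16, 708, 611 and 477 CPM for gu163, and 269, 191 and 103 CPM for gu167. No library of one strain lay within the range of another. Means were 365 ± 77.0, 599 ± 116 and 188 ± 82.8 CPM in AF16, gu163 and gu167 (SD, n = 3). The gene's log2 fold change was 0.71 ± 0.32 in gu163 and -0.96 ± 0.32 in gu167 against AF16, and -1.67 ± 0.33 in gu167 against gu163. Among the 3 genes it held the largest fold difference between gu167 and AF16.

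**Figure D1:**
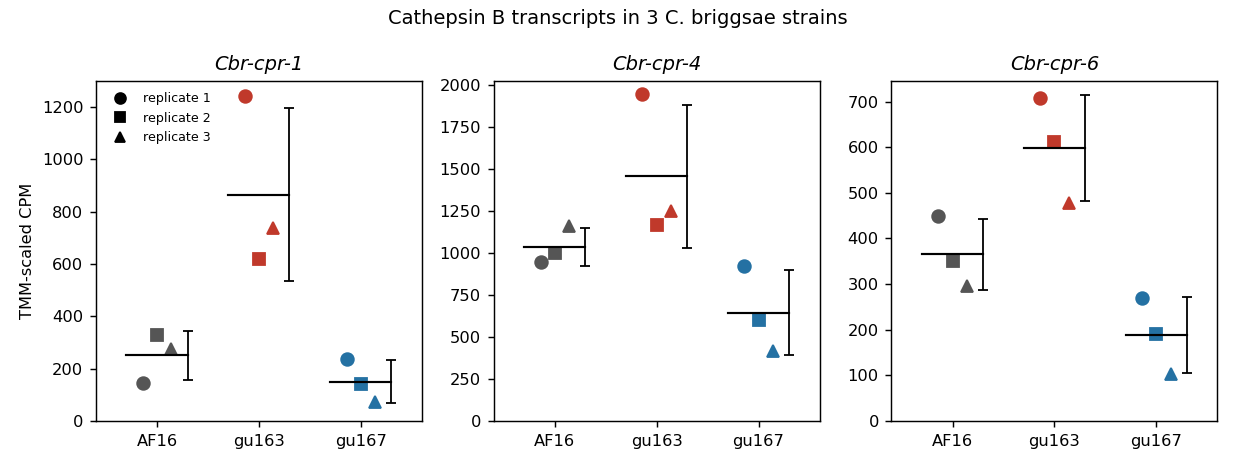
TMM-scaled CPM (linear axes from 0) of Cbr-cpr-1, Cbr-cpr-4 and Cbr-cpr-6 in the 9 libraries. Symbols are replicates, horizontal lines are means and bars are SD of 3 libraries. The gu163 libraries lie above AF16 in each panel, and gu167 replicate 3 holds the lowest value, 72.8, 416 and 103 CPM.

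The plot of levels by library shows shared departures from the strain means in the mutants. In gu163 and gu167 the 3 genes lay above the mean in replicate 1 and below it in replicate 3. Values were highest of all in gu163 replicate 1 and lowest in gu167 replicate 3. In AF16 the directions differed between genes: replicate 1 had the lowest Cbr-cpr-1 and the highest Cbr-cpr-6. Over the 9 libraries, Pearson r of log2 CPM was 0.92 between Cbr-cpr-1 and Cbr-cpr-4, 0.93 between Cbr-cpr-4 and Cbr-cpr-6 and 0.86 between Cbr-cpr-1 and Cbr-cpr-6. Of the deviations from the strain means, r was 0.88, 0.74 and 0.55 for the same pairs. These describe points that share libraries, their depth and their scaling.

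The libraries did not overlap for 3 of 3 genes in gu163 against AF16, where 14.5% of all 12507 genes tested were higher without overlap. The same was so for 2 of 3 in gu167 against AF16 (7.60% of all genes lower) and 3 of 3 between the mutants (20.2% lower). The genes were picked from these comparisons, so nothing is read from the counts.

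Ratios of counts within a library do not depend on how libraries are scaled. The genes were picked for their levels in these strains, so nothing is read from which ratios overlap. Its count relative to Cbr-cpr-4 was 0.154, 0.330 and 0.238 for AF16. It was 0.638, 0.528 and 0.588 for gu163, and 0.257, 0.235 and 0.175 for gu167. Each gu163 library was above each library of the other strains, while AF16 and gu167 overlapped. Relative to Cbr-cpr-6 it was 0.323, 0.942 and 0.929 for AF16, 1.75, 1.01 and 1.54 for gu163, and 0.878, 0.734 and 0.705 for gu167, again with gu163 above the rest. The ratio of Cbr-cpr-4 to Cbr-cpr-6 overlapped between gu163, at 1.91 to 2.75, and AF16, at 2.10 to 3.91. It was 3.13 to 4.02 in gu167, above the gu163 libraries.

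As a share of the counts of the 3 genes together, Cbr-cpr-1 made up 9.43% to 19.7% in AF16, 25.7% to 31.9% in gu163 and 12.3% to 16.6% in gu167. Cbr-cpr-4 held the largest count share in every library, from 48.8% in gu163 replicate 2 to 70.2% in gu167 replicate 3. The Wilson 95% interval of any of these shares spanned at most 2.33 percentage points, counting error only, which is less than the spread between replicates of Cbr-cpr-1 in each strain. The 3 genes together took 0.129% to 0.160% of all counts in AF16, 0.262% to 0.343% in gu163 and 0.0710% to 0.137% in gu167. The last 2 ranges do not overlap, and gu167 replicate 1 lay within the AF16 range. Nothing is read from this, because the genes were picked for their levels.

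**Figure D2:**
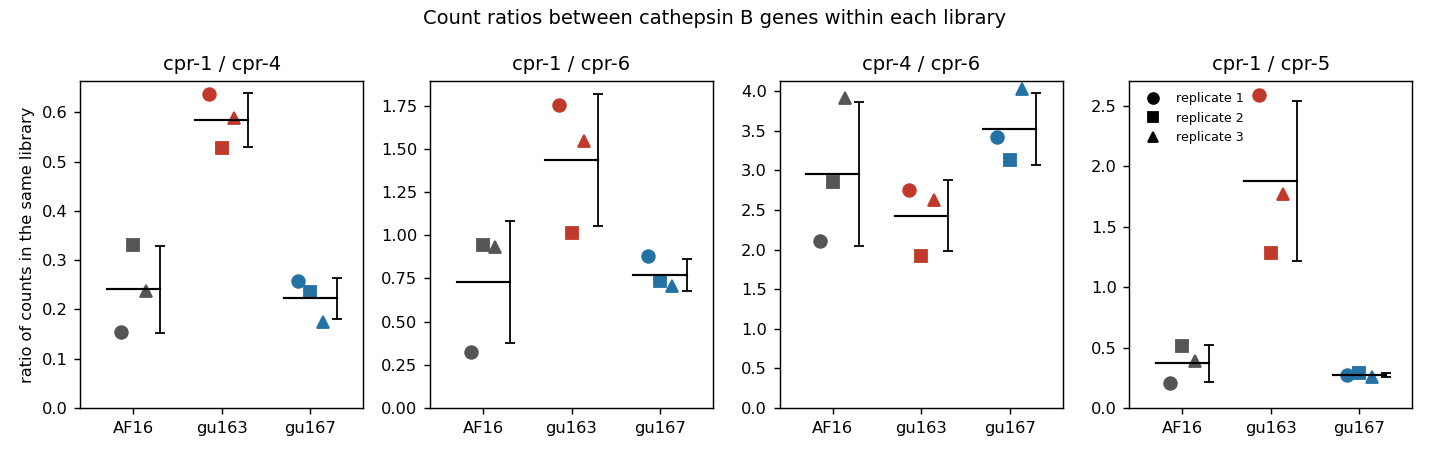
Ratios of raw counts within each library (linear axes from 0), with symbols for replicates, lines for means and bars for SD of 3 libraries. Cbr-cpr-1 over Cbr-cpr-4 is 0.528 to 0.638 in gu163 and at most 0.330 in the other strains, whereas Cbr-cpr-4 over Cbr-cpr-6 overlaps between gu163 and AF16.

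The other cathepsin B genes with a cpr symbol, Cbr-cpr-3 and Cbr-cpr-5, had other orders of the strain means. The AF16 replicates of Cbr-cpr-5 read 693, 644 and 714 CPM, those of gu163 read 479, 481 and 416 CPM, and those of gu167 read 879, 486 and 286 CPM. Its gu163 libraries were all below AF16, but the log2 fold change of -0.58 ± 0.33 did not pass (edgeR adjusted p = 0.326), nor did -0.31 ± 0.33 in gu167 (adjusted p = 0.665). Relative to Cbr-cpr-5 in the same library, the count of Cbr-cpr-1 was 0.209 to 0.512 in AF16, 1.28 to 2.59 in gu163 and 0.255 to 0.289 in gu167. Cbr-cpr-4 relative to Cbr-cpr-5 was 1.36 to 1.62 in AF16, 2.43 to 4.06 in gu163 and 1.05 to 1.45 in gu167, and Cbr-cpr-6 was 0.415 to 0.647, 1.15 to 1.48 and 0.306 to 0.393. For each of the 3 genes this ratio was higher in every gu163 library than in any other library, while Cbr-cpr-5 itself was lowest on average in gu163. A low divisor raises the ratio, and the 3 genes were picked for their levels, so nothing is read from the lack of overlap. Cbr-cpr-3, with means of 31.7, 55.0 and 42.2 CPM in AF16, gu163 and gu167, had log2 fold changes of 0.79 ± 0.22 in gu163 (adjusted p = 0.0540) and 0.41 ± 0.22 in gu167 (adjusted p = 0.406). Relative to Cbr-cpr-3, gu163 and AF16 overlapped for all 3 genes. The ratio of Cbr-cpr-1 was 8.65 to 26.5 for gu163 and 5.15 to 10.4 for AF16, that of Cbr-cpr-4 was 16.4 to 41.6 and 24.8 to 43.6, and that of Cbr-cpr-6 was 8.57 to 15.1 and 8.69 to 15.95.

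Related proteases and inhibitors were tested by edgeR's quasi-likelihood test, with Benjamini-Hochberg adjustment over all genes at 0.05, as a list of 8 genes, all of which passed the filter on low counts. The list held Cbr-cpr-3, Cbr-cpr-5, the cathepsin L gene Cbr-cpl-1, the cathepsin Z genes Cbr-cpz-1 and Cbr-cpz-2, the cathepsin F-like Cbr-tag-196 and the cystatin genes Cbr-cpi-1 and Cbr-cpi-2. Between the mutants 4 genes were lower in gu167 than in gu163 and 0 higher, where 8.33% of all genes were lower, 5.13% higher and 13.5% either. The list had a median log2 fold change of -0.81 beside 0.02 over all genes. Cbr-cpl-1, whose C. elegans counterpart is needed in embryos and in molting, was measured at 1252, 871 and 822 CPM in gu163, where the gu167 libraries gave 495, 373 and 272 CPM. It fell by 1.37 on the log2 scale (SE 0.26, edgeR adjusted p = 0.0100). Cbr-cpz-1, linked to molting in C. elegans, fell by 1.45 (SE 0.29, adjusted p = 0.0118), with 383 to 496 CPM in gu163 and 118 to 207 CPM in gu167. Cbr-tag-196 fell by 1.31 (SE 0.22, adjusted p = 0.00732), from 77.3 to 108 CPM in gu163 against 30.6 to 40.3 CPM in gu167. The fourth was Cbr-cpi-1, which fell by 1.14 (SE 0.19, adjusted p = 0.00686). The libraries of the mutants did not overlap for any of these 4 genes, where 20.2% of all genes were lower without overlap. That adds little, as the 4 genes were already called from the same libraries. Their calls passed in each of the 6 fits that left out 1 library of either mutant.

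Against AF16 fewer of the 8 genes passed. Of all genes 6.36% were higher, 2.94% lower and 9.30% either in gu163, and 1.97%, 0.128% and 2.09% in gu167. Of the 12507 genes, 2955 and 1875 had an unadjusted p under 0.05 in gu163 and gu167, and DESeq2 called 1617 and 636. In gu163 Cbr-cpi-1 rose by 1.29 ± 0.19 (adjusted p = 0.00270), from 16.5 ± 1.06 to 40.5 ± 9.93 CPM (n = 3), and the other 7 did not pass. The median of the list was 0.55 beside -0.01 over all genes, and 6 of 8 values were above 0. DESeq2 called 3 of the 8. The values of Cbr-cpl-1, Cbr-cpz-1 and Cbr-tag-196 were 0.50 ± 0.26, 0.90 ± 0.29 and 0.60 ± 0.22 (adjusted p = 0.278, 0.0815 and 0.125). In gu167 against AF16 edgeR called 0 of 8, with 2 at an unadjusted p under 0.05, DESeq2 1 and limma-voom 0. The values of those 3 genes were -0.87 ± 0.26, -0.54 ± 0.29 and -0.70 ± 0.22 (adjusted p = 0.142, 0.393 and 0.166), with a list median of -0.20 beside -0.02 over all genes. Both mutants were compared with the same AF16 libraries. The other cathepsin Z gene, Cbr-cpz-2, gave -0.24 ± 0.17 in gu163 and 0.09 ± 0.17 in gu167 (adjusted p = 0.428 and 0.825). For the second cystatin gene, Cbr-cpi-2, the values were 0.39 ± 0.19 and -0.10 ± 0.19 (adjusted p = 0.243 and 0.836).

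**Figure D3:**
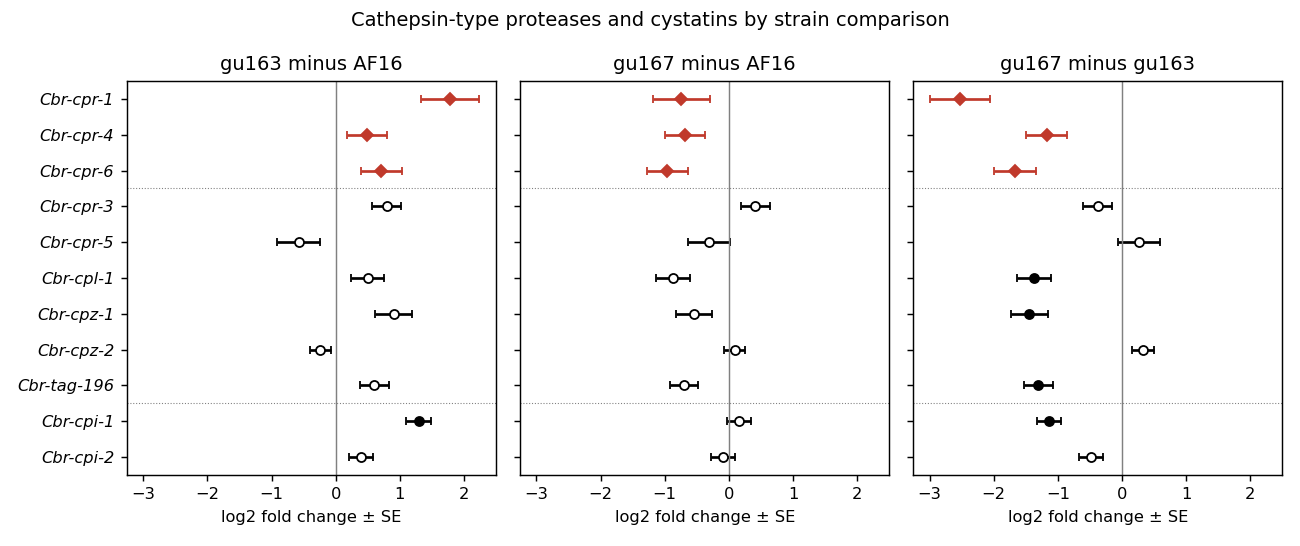
Log2 fold changes with SE of the 3 cathepsin B genes (red diamonds, shown without a test) and of 8 related genes (circles, filled where edgeR adjusted p is under 0.05), in each comparison of strains. Dotted lines separate the 3 genes, the other proteases and the cystatins. In gu167 minus gu163, Cbr-cpl-1, Cbr-cpz-1, Cbr-tag-196 and Cbr-cpi-1 are filled and lie between -1.45 and -1.14.

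Among 9 papain-family protease genes, cystatins left out, the 3 cathepsin B genes made up 43.3% to 49.3% of the summed counts in AF16, 52.1% to 60.5% in gu163 and 38.0% to 42.6% in gu167. These shares did not overlap between strains, but AF16 replicate 1 (43.3%) and gu167 replicate 1 (42.6%) were close. The 3 genes were picked for their levels in these strains, so nothing is read from the lack of overlap. The 9 genes summed to 3511 to 3679 CPM (AF16), 4383 to 6437 CPM (gu163) and 1559 to 3343 CPM (gu167).

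Aspartic proteases are another class of nematode gut endoproteases. Of 6 measured Cbr-asp genes, edgeR called 0 in gu163 and 0 in gu167 against AF16, with 0 and 0 at an unadjusted p under 0.05 and 0 by DESeq2 or limma-voom, beside 9.30% and 2.09% of all genes called. Cbr-asp-1, Cbr-asp-3 and Cbr-asp-5 had the highest mean CPM. For Cbr-asp-1, an intestinal protease gene in C. elegans, the means were 4960.4 ± 1809 CPM (AF16), 4809.9 ± 816 CPM (gu163) and 4384 ± 1074 CPM (gu167; SD, n = 3), with log2 fold changes of -0.04 ± 0.32 and -0.18 ± 0.32. Cbr-asp-3 gave -0.33 and -0.05 and Cbr-asp-5 0.01 and -0.09. Between the mutants Cbr-asp-4, related to cathepsin D, was lower in gu167 (-0.87 ± 0.23, adjusted p = 0.0335), 1 of 6 beside 13.5% of all genes, but 5 of the 6 fits without a library of these strains did not make that call (highest adjusted p = 0.126).

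Of 39 other secreted or lysosomal hydrolases and saposin-like genes, 33 passed the filter. In gu163 against AF16 3 rose and 1 fell, near the 9.30% of all genes called, and the median was 0.32 beside -0.01 over all genes. The lysozyme genes Cbr-lys-6.1 (1.33, adjusted p = 0.0161) and Cbr-lys-6.2 (0.78, adjusted p = 0.0360) and the invertebrate-type lysozyme gene Cbr-ilys-4 (0.85, adjusted p = 0.0438) rose. The carboxypeptidase gene Cbr-pcp-1.2 fell by 1.26 (adjusted p = 0.0210). Leaving out gu163 replicate 1 ended the Cbr-lys-6.1 call (adjusted p = 0.0536). The calls of the other 3 genes ended in 3 to 5 of 6 such fits. Without gu163 replicate 1 the list held 0 calls, without gu163 replicate 3 it held 1, and without AF16 replicate 2 or 3, or gu163 or gu167 replicate 2, it held 2. Against AF16 edgeR called 0 of the 33 in gu167, beside 2.09% of all genes. There were 6 at an unadjusted p under 0.05, 2 by DESeq2 and 0 by limma-voom. Between the mutants 8 were lower in gu167 and 0 higher, beside 8.33% and 5.13% of all genes. The lysozyme gene Cbr-lys-10 fell by 1.33 (SE 0.24, adjusted p = 0.00812) and the saposin-like Cbr-spp-13 changed by -2.35 (SE 0.43, adjusted p = 0.00860), calls that passed in 6 of 6 such fits. Cbr-lys-6.1, Cbr-lys-6.2, Cbr-spp-18 and Cbr-pcp-5 were also lower, with log2 fold changes of -1.38, -0.96, -1.71 and -0.77 (adjusted p = 0.0127, 0.0141, 0.0141 and 0.0232), with calls lost in 1 to 3 of 6 fits. The 8 became 5 without gu163 replicate 1 and 3 without gu167 replicate 2 or 3. The genes of the list with the highest mean CPM, Cbr-ilys-5, Cbr-lipl-6 and Cbr-lys-10, had values of 0.16, -0.07 and 0.68 in gu163 and -0.01, -0.19 and -0.65 in gu167 against AF16, none of which passed.

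Genes that mark the gut itself, and genes of the compartment where cathepsins work, had list medians below 0 in both mutants against AF16. Of 17 intestine markers 16 were tested, and in gu163 against AF16 edgeR called 0, with 4 at an unadjusted p under 0.05 and 0 by DESeq2 or limma-voom. In gu167 against AF16 the counts were 0, 0 and 0. Of all 12507 genes edgeR called 9.30% in gu163 and 2.09% in gu167, and 2955 and 1875 had an unadjusted p under 0.05. List medians were -0.21 and -0.16, with 14 and 12 of 16 values below 0. The GATA factor gene Cbr-elt-2, a master regulator of the intestine in C. elegans, gave -0.18 ± 0.22 in gu163 (adjusted p = 0.679) and -0.00 ± 0.22 in gu167, with a mean of 21.5 ± 6.13 CPM in AF16. The markers summed to 7438 to 13295 CPM (AF16), 7486 to 9863 CPM (gu163) and 7333 to 11389 CPM (gu167), so the strains overlapped. Between the mutants the metallothionein gene Cbr-mtl-1 was lower in gu167 and the sodium-proton exchanger gene Cbr-nhx-2 higher (adjusted p = 0.0432 and 0.0276), calls lost in 6 and 5 of 6 fits without 1 library.

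Set against the summed intestine markers of the same library, the differences of the cathepsin B genes kept their signs. Cbr-cpr-1 amounted to 19.5, 33.7 and 20.7 counts per 1000 marker counts for AF16, 142, 62.6 and 98.2 for gu163, and 20.7, 16.6 and 9.93 for gu167. The mean log2 difference of this ratio from AF16 was 2.001 in gu163 and -0.66 in gu167 for Cbr-cpr-1. It was 0.66 and -0.60 for Cbr-cpr-4, and 0.91 and -0.89 for Cbr-cpr-6. In gu163 the differences were no smaller than those in CPM, while in gu167 they were somewhat smaller in size for each gene. Cbr-cpr-4 per 1000 marker counts overlapped between gu163 and AF16, with 118 in gu163 replicate 2 and 127 in AF16 replicate 1. Cbr-cpr-6 overlapped between gu167 and AF16, with 23.6 in gu167 replicate 1 and 22.3 in AF16 replicate 3. In CPM neither of these pairs overlapped. Much of the marker sum came from Cbr-asp-1, with 3359 of 7438 CPM in AF16 replicate 1 and 5573 of 9863 CPM in gu163 replicate 2. The ratio thus leans on that gene, and the part of gut content in the differences was not tested.

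All 28 genes of lysosome membrane and acidification were tested, 18 of them subunits of the proton pump that acidifies lysosomes. In gu163 the list's median was -0.34, with 21 of 28 values below 0, and 2 genes passed, beside 9.30% of all genes. There were 14 of the 28 at an unadjusted p under 0.05, beside 2955 of all 12507 genes, and DESeq2 called 4. In gu167 these counts were 2 and 2, beside 1875 of all genes at that p. Cbr-vha-18, a pump subunit gene, rose by 3.32 ± 0.25 in gu163 and 3.26 ± 0.24 in gu167 (adjusted p = 2.66e-05 and 6.84e-05), from 0.932 ± 0.130 CPM in AF16 (n = 3), and no other gene of the list passed in gu167. Cbr-vha-16 fell by 0.62 in gu163 (adjusted p = 0.0442), a call lost in 6 of 6 fits without 1 library. The genes with the highest mean CPM, Cbr-vha-13, Cbr-vha-12 and Cbr-vha-8, had values of -0.87, -0.76 and -0.62 in gu163 and -0.37, -0.36 and -0.27 in gu167, none of which passed. Between the mutants the scavenger receptor gene Cbr-scav-3 was lower in gu167 (-0.58, adjusted p = 0.0335, lost in 5 of 6 fits), and 0 genes were higher. Of all genes 8.33% were lower and 5.13% higher there. Of 15 gut regulators tested, which included Cbr-elt-2, Cbr-hlh-30 and Cbr-daf-16, edgeR called 0 in each of the 3 comparisons. Of all genes it called 9.30% in gu163, 2.09% in gu167 and 13.5% between the mutants. At an unadjusted p under 0.05 there were 2 in gu163, 0 in gu167 and 2 between the mutants, by DESeq2 1, 0 and 1, and by limma-voom 0, 0 and 0. Of all 12507 genes, 2955, 1875 and 3555 had such a p, and DESeq2 called 1617, 636 and 2288. Of the regulators Cbr-let-363, Cbr-daf-2 and Cbr-daf-15 had the highest mean CPM, with values of -0.04, 0.27 and 0.03 in gu163 and 0.12, -0.20 and -0.05 in gu167.

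**Figure D4:**
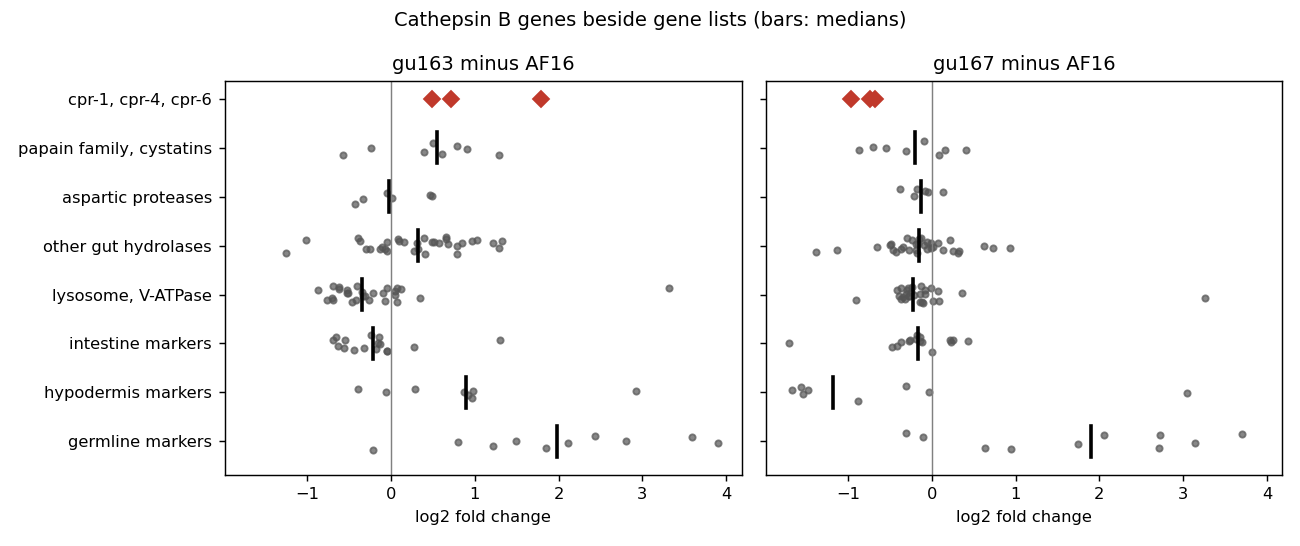
Log2 fold changes of the 3 cathepsin B genes (red diamonds) and of the tested genes of 7 lists (points, jittered vertically, with bars for medians) in gu163 and gu167 against the same AF16 libraries. The medians of the intestine markers are -0.21 and -0.16, while those of the hypodermis markers, 0.89 and -1.18, lie on the sides where the cathepsin B genes do.

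The summed level of markers of the hypodermis, the skin of the worm, had the same order of strains as the cathepsin B genes, but not each marker did. The 8 markers summed to 3348 to 5370.01 CPM (AF16), 4868 to 14380.1 CPM (gu163) and 969 to 2087 CPM (gu167). Most of that sum came from the collagen genes Cbr-dpy-13, Cbr-sqt-3, Cbr-rol-6 and Cbr-sqt-1, which were lower in gu167 than in gu163, with log2 fold changes of -2.48, -2.41, -2.65 and -2.45 (adjusted p = 0.0171, 0.00983, 0.00840 and 0.00786). Of all genes 8.33% were lower in gu167 than in gu163. Against AF16, gu163 had 1 called marker, beside 9.30% of all genes. This was Cbr-dpy-17 (2.93, adjusted p = 0.0393), another collagen gene, at 2.73, 7.04 and 1.13 CPM in gu163. Its level was also above AF16 in gu167, at 2.34, 2.96 and 6.73 CPM (3.04, adjusted p = 0.0841). The 4 collagen genes that carry the sum did not pass in gu163 against AF16. In that comparison limma-voom called 0 of the list. In gu167 against AF16 there were 0 by edgeR, 5 at an unadjusted p under 0.05, 5 by DESeq2 and 0 by limma-voom. Of all 12507 genes these counts were 262, 1875, 636 and 237. The defining regulator genes Cbr-elt-1 and Cbr-lin-26 gave -0.39 and -0.06 in gu163 and -0.03 and -0.31 in gu167. No marker of this list was at 0 counts in any library. Its part in the differences of the cathepsin B genes was not tested.

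Most germline markers were higher in both mutants, with 9 of 10 values above 0 in gu163 and 8 in gu167. Against AF16 7 were called higher in gu163 and 5 in gu167, beside 6.36% and 1.97% of all genes. The markers summed to 33.6 to 49.8 CPM (AF16), 137 to 156 CPM (gu163) and 113 to 117 CPM (gu167). The cathepsin B genes, in contrast, had values above 0 in gu163 and below 0 in gu167. Of 4 tested pharynx markers edgeR called 1 in gu163, the troponin gene Cbr-tni-4 (1.57, adjusted p = 0.0215), beside 9.30% of all genes. All 4 had values above 0 in gu163, from 1.18 to 1.57. There 4 had an unadjusted p under 0.05, DESeq2 called 3 and limma-voom 2. In gu167 edgeR called 0, beside 2.09% of all genes, 1 had an unadjusted p under 0.05, and DESeq2 and limma-voom called 0. The pharynx markers summed to 9.87 to 26.3 CPM (AF16), 31.6 to 53.6 CPM (gu163) and 19.8 to 26.8 CPM (gu167). The part of either list in the cathepsin B differences was not tested. Of 8 body wall muscle, 9 neuron and 3 coelomocyte markers edgeR called 0 in each comparison. Of all genes it called 9.30% in gu163, 2.09% in gu167 and 13.5% between the mutants, and lists this short can hold 0 calls at such shares. Against AF16, 7, 7 and 3 of these markers had values below 0 in gu163, and 8, 7 and 3 in gu167. At an unadjusted p under 0.05 gu163 had 0, 1 and 3 against AF16, gu167 0, 2 and 0, and the mutants differed in 0, 1 and 1. Of all 12507 genes, 2955, 1875 and 3555 had such a p in these comparisons. DESeq2 called 1 coelomocyte marker in gu163 and 1 neuron marker in gu167 against AF16, and limma-voom called 0 in each.

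Each cathepsin B gene was also set beside the 5 genes with a symbol and a mean of at least 5 CPM whose log2 CPM had the highest Pearson r with it over the 9 libraries. For Cbr-cpr-1 these were the Y-box gene Cbr-cey-4, the aminopeptidase gene Cbr-pam-1, Cbr-asp-4, the microtubule-end-binding gene Cbr-ebp-2 and the small GTPase gene Cbr-arl-8, with r of 0.96 to 0.98. Their log2 fold changes in gu163 were 0.18 to 0.60, well under the 1.79 of Cbr-cpr-1. For Cbr-cpr-4 they were Cbr-tsn-1, the exchange factor gene Cbr-agef-1, the COPII coat genes Cbr-sec-23 and Cbr-sec-24.1, which serve export from the endoplasmic reticulum, and the nucleotide-sugar dehydrogenase gene Cbr-sqv-4, with r of 0.97 to 0.99. Those of Cbr-cpr-6 were Cbr-cpl-1, the cadherin gene Cbr-cdh-12, the molting gene Cbr-mlt-9, the protein disulfide isomerase gene Cbr-pdi-3 and the hedgehog-related gene Cbr-wrt-6, with r of 0.96 to 0.97. The log2 fold changes of these 5 were 0.28 to 0.92 in gu163 and -1.73 to -0.45 in gu167. By Pearson's r no gene was named for more than 1 of the 3, whereas by Spearman's rho Cbr-ebp-2, Cbr-hgrs-1 and Cbr-plp-2 were among the 5 for both Cbr-cpr-1 and Cbr-cpr-4.

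**Figure D5:**
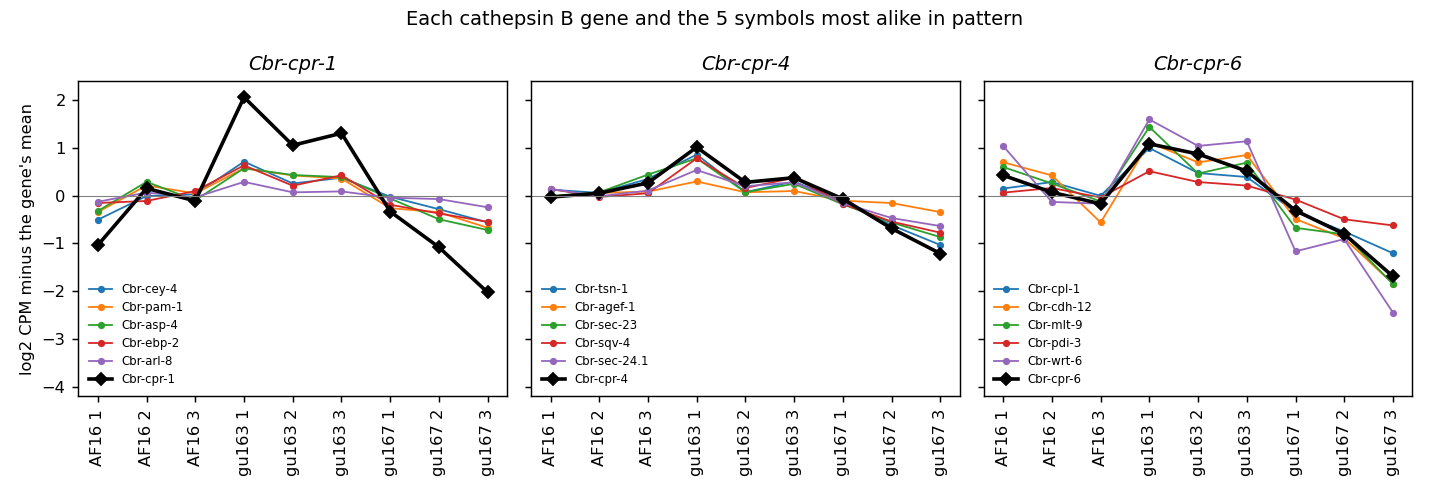
Log2 CPM of each cathepsin B gene (black) and of the 5 genes most alike in pattern (colours), each minus its own mean over 9 libraries; lines only join the points of a gene, and replicates have no order. The genes near Cbr-cpr-1 span less than it does, while those near Cbr-cpr-6 range from a narrower span (Cbr-pdi-3) to a wider one (Cbr-wrt-6), with log2 fold changes of -1.73 to -0.45 in gu167 against AF16.

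In the reference gene table no 2 of the cathepsin B genes were neighbours, and no listed gene overlapped one. Of the 12 nearest genes, 2 on each side, 10 were tested. Against AF16 1 was called in gu163 and 0 in gu167, beside 9.30% and 2.09% of all genes. The called one, chosen after its value was seen, was CBG18976 near Cbr-cpr-4 (1.31, adjusted p = 0.0144). The genes next to the 3 on either side did not pass in either mutant.

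Total counts per library ran from 8294524 to 14095189, and the cathepsin B genes held 725 to 15521 counts each, so counting error was small beside the spread between replicates. The gu163 libraries held 2.17-fold more Cbr-spr-4 than AF16 (log2 1.12 ± 0.16, edgeR adjusted p = 0.00232), and Cbr-htz-1 in gu167 gave -0.13 ± 0.15 (adjusted p = 0.689). Since the lesions are not given, these values do not check the labels. AF16 replicate 3 and gu167 replicate 3 stood apart on the second principal component, at 66.3 and -45.8, and had the lowest and highest TMM factors, 0.746 and 1.202. Without both, the log2 fold changes against AF16 were 1.87, 0.59 and 0.59 in gu163 and -0.34, -0.36 and -0.79 in gu167 for Cbr-cpr-1, Cbr-cpr-4 and Cbr-cpr-6. The gu167 values of Cbr-cpr-1 and Cbr-cpr-4 were thus nearer to 0, and the signs held.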

How the data were processed

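RNA of 9 libraries, 3 per strain, was analysed from raw read counts per gene, which the authors deposited without normalization. Per the submitters' processing notes, Trim Galore, FastQC, STAR and DESeq were used, without versions or roles. The sources used here do not name the counting tool, strand setting, build or annotation, so reads of overlapping, antisense or near-identical genes cannot be told apart. The deposited series table and the library files held the same counts for 9 of 9 libraries. Symbols came from the reference table of assembly CB4, which matched 22727 identifiers. No sequence or gene length was used, and coordinates served only to order neighbouring genes and to see whether they overlapped.

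Counts were tested in R 4.3.3 with edgeR 4.0.16 (TMM, filterByExpr at a minimum of 10 counts, robust quasi-likelihood fit), with all 9 libraries in 1 fit without a replicate term. The p-values were adjusted by Benjamini-Hochberg over 12507 genes, and adjusted p under 0.05 was called. SE was taken from the F statistic. In gu163 against AF16 795 genes were higher and 368 lower (697 and 91 with library totals only). In gu167 against AF16 the counts were 246 and 16 (209 and 3), and in gu167 against gu163 641 and 1042 (419 and 593). Log2 CPM for correlations used a prior count of 2. Alternatives used DESeq2 1.42.0 and limma 3.58.1. Of all genes DESeq2 called 1617, 636 and 2288 (gu163 and gu167 against AF16, and gu167 against gu163). In the same order limma-voom called 1084, 237 and 1638, and 2955, 1875 and 3555 had an unadjusted edgeR p under 0.05. The steps were tested on simulated counts. Replicate pairs differed by more than sampling noise (chi-square per degree of freedom 17.3 to 79.2).

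The 3 genes, 5 gene lists, 7 marker lists and naming rule were chosen with earlier results of these data known. The rule took all genes of the papain-family list, and of other lists up to 6 called genes per comparison and the 3 with the highest means. Cbr-elt-2, Cbr-elt-1 and Cbr-lin-26 were added as defining regulators of their tissues after their values were seen. A planned search for cathepsin B-like genes by sequence was not run.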

Additional observations from a re-analysis of the deposited data

How the results depend on the processing

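The log2 fold changes of the 3 cathepsin B genes kept their signs and moved by less than the spread between replicates in every alternative run. Library totals alone shifted the median of all genes by 0.16, 0.27 and 0.11 (gu163 and gu167 against AF16, and gu167 against gu163). The replicate block gave 1.68, 0.43 and 0.72 in gu163 and -0.90, -0.76 and -1.03 in gu167 for Cbr-cpr-1, Cbr-cpr-4 and Cbr-cpr-6. Replicates share only a number: same-numbered libraries had correlations of -0.29 to 0.25, and others -0.33 to 0.39. With the block the genes called fell from 1163 to 876, 262 to 173 and 1683 to 1240.

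Counts of called genes were less stable, and the cause was not tested. For the papain-family list, the 1 called in gu163 was 1 to 2 without 1 library, 2 with library totals, no filter or AF16 replicate 3 and gu167 replicate 3 left out, and 3 with DESeq2 or the replicate block. DESeq2 called 1 in gu167. The 1 aspartic protease called between the mutants was 0 to 1 without 1 library, and 0 with the block or without those 2 libraries. For the other hydrolases, the 4 called in gu163 were 0 to 5 without 1 library, 7 with DESeq2, and 2 with the block or without those 2 libraries. The 0 in gu167 was 0 to 2 without 1 library and 2 with DESeq2, and the 8 between mutants were 3 to 10 without 1 library. For the lysosome list, the 2 called in gu163 were 1 to 2 without 1 library, 4 with DESeq2, and 1 with RLE factors, no filter, the compared strains only, the block or without those 2 libraries. The 1 in gu167 was 1 to 2 without 1 library and 2 with no filter or DESeq2, and the 1 between mutants was 0 to 1, and 0 with upper-quartile factors, library totals or the block. Gut regulators, 0 in gu163 and between mutants, were 0 to 1 without 1 library and 1 with DESeq2. Intestine markers, 0 in gu163, were 0 to 2 without 1 library. Their 2 between mutants were 0 to 2, then 0 with library totals and 1 with no filter, DESeq2 or without those 2 libraries. At an adjusted p under 0.0005 these lists held 0 calls, apart from 1 lysosome gene in each mutant against AF16. Spearman's rho in place of Pearson's r kept 3, 0 and 0 of the 5 genes most like Cbr-cpr-1, Cbr-cpr-4 and Cbr-cpr-6.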
